A study of Mus musculus with 23 samples.

Results

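The comparison here sets mice with low replicate numbers against mice with high replicate numbers in a study of small intestine from mice on a high-fat diet without or with quercetin. Mice numbered 1 to 4 (early: 4 on the high-fat diet alone, HF, and 4 on the quercetin diet, HF-Q) were compared with mice numbered 8 to 12 (late: 5 HF and 4 HF-Q), which takes in 17 of the 23 arrays. The 6 mice numbered 5 to 7 (middle, 3 of each diet) were not part of the comparison and are described only. The labels give the numbers but not what they stand for: the order of fasting, dissection or extraction was not stated. All animals were adult male C57BL/6J mice, given normal-fat food over 3 weeks before 12 weeks of high-fat food, which in HF-Q held quercetin, a plant flavonoid, at 0.33% by weight. They were fasted for 2 to 4 h before death. Of the 24 mice, a single HF-Q mouse had been left out by the submitters. Scrapings of the small intestine, which hold the inner lining and whatever deeper tissue comes with it, were labelled with Cy5 and hybridised against Cy3-labelled RNA pooled from all mice. Each value below is a log2 ratio of a mouse over that pool. Dyes were not swapped, so a probe's dye effect is part of its value in every mouse and drops out between mice.

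The lining of the small intestine is renewed from crypts, where Lgr5-positive stem cells sit between Paneth cells, secretory cells that release antimicrobial proteins. Their progeny divide in the upper crypt and then move onto the villus, where enterocytes take up fat, sugars and amino acids. Below the epithelium lie the stroma, with fibroblasts, vessels and immune cells, and the smooth muscle of the wall. Intestinal cells also carry a circadian clock, in which Per and Cry proteins and the output factor Dbp cycle over the day. As a check of the tissue, all 12 enterocyte markers were well above background on all 17 arrays, as were 6 of 11 hepatocyte markers. Of the other hepatocyte markers, albumin (Alb) was above it on 8 arrays, Fgb on 2, Hpx on 1, and Ahsg and Mup3 on none. The extraction field of the labels names liver, against the other labels.

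Late mice differed from early mice across a large part of the genome. Of 21456 genes tested, 5737 (26.7%) passed an adjusted p of 0.05 in limma with diet and slide in the fit, 3415 higher in late mice (15.9% of genes) and 2322 lower (10.8%). The changes were small for the most part: 84 genes passed with a difference of more than 1 on the log2 scale, 80 of them higher and 4 lower. In 639 genes (2.98%) the 8 early and 9 late mice did not overlap at all, 528 with every late mouse above every early mouse (2.46%) and 111 the other way (0.517%). The sets were chosen by replicate number after the log2 ratios of all genes on these same arrays had been seen to differ between low and high numbers. The counts and adjusted p-values of late against early mice therefore rank and describe the difference and are no test of it. The division into higher and lower depended on the scaling: higher calls made up 59.5% with loess within arrays, 81.5% with median centring and 32.8% in the authors' log2 table, where the median of all genes was -0.091.

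Of 6 measures of array quality none differed between the sets past the threshold, whereas array position was in part tied to the number. Median Cy5 intensity ran from 93.9 to 123 in early and from 97.2 to 122 in late arrays, with an exact permutation p of 0.315 (two-sided, labels permuted within diet). Across the 6 measures the smallest p was 0.246, or 0.631 after Benjamini-Hochberg adjustment, for the Cy3 background. Early mice had 2, 2 and 4 arrays on slides 1, 2 and 3, and late mice had 4, 2 and 3. Arrays lie in 2 rows on a slide, and 6 of 8 early arrays were in row 1 whereas 7 of 9 late arrays were in row 2. In HF-Q all 4 early arrays were in row 1 and all 4 late arrays in row 2, so row and number cannot be told apart in that diet. In HF the early mice had 2 arrays in each row and the late mice 2 and 3. With the row in the fit over both diets, 3412 genes (15.9%) passed, 2226 higher (10.4%) and 1186 lower (5.53%).

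The 5 marker genes given for this comparison fell into 2 kinds. Lgr5, Olfm4 and Mki67 were higher in late mice, whereas Dbp and Per2 did not pass the threshold. Lgr5, the receptor that marks crypt base stem cells (probe chr10:114887403-114887462, mm9), stood at -0.40, 0.0043, -0.097 and -0.36 in early HF mice and at -0.78, -1.02, -0.68 and 0.0015 in early HF-Q mice. Late HF mice had 0.24, 0.12, 0.64, 0.59 and 0.63, and late HF-Q mice had 0.20, 0.35, 0.43 and 0.30. Every late mouse lay above every early mouse, and the difference was 0.79 ± 0.13 (SE, 8 early and 9 late mice), a 1.73-fold change with an adjusted p of 0.00086 in limma. Early values spread more in HF-Q than in HF, and early HF mouse 2 and early HF-Q mouse 4 lay closest to the late mice. Olfm4, a secreted protein of the same cells (probe chr14:80421398-80421457), stood at -0.52, -0.38, -0.35 and -0.59 in early HF, -0.80, -1.15, -0.025 and 0.13 in early HF-Q, 0.32, 0.023, 0.30, 0.47 and 0.57 in late HF and 0.39, -0.033, 0.29 and 0.40 in late HF-Q mice. Its difference was 0.73 ± 0.15. The sets did not overlap in HF, while in HF-Q early mice 3 and 4 lay among the late mice. Mki67, the proliferation antigen Ki-67 (probe chr7:142881591-142881650), stood at -0.86, -0.39, -0.55 and -0.85 and -0.83, -0.65, -0.75 and -0.10 in early HF and HF-Q mice, and at 0.068, 0.053, 0.52, 0.11 and 0.29 and 0.35, 0.25, 0.16 and 0.15 in late ones. All late mice were above all early mice, by 0.86 ± 0.10 or 1.82-fold.

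Dbp, a clock output factor (probe chr7:52965322-52965381), was -2.42, 0.90, 1.17 and -1.60 in early HF mice and -1.97, -1.85, -0.44 and 0.72 in early HF-Q mice. Late HF mice had 0.47, -0.75, 0.17, -2.37 and 0.81 and late HF-Q mice 0.23, -1.45, -1.97 and 0.47. Low and high mice occurred in each of these groups, and the difference of 0.083 ± 0.53 was smaller than its error (adjusted p = 0.93 in limma). In the authors' table it was -0.015. Per2, a repressor of the clock (probe chr1:93313046-93313105), ran from -0.47 to 0.48 (median -0.10) in early mice and from -0.33 to 0.45 (median 0.072) in late mice, with a difference of 0.13 ± 0.13.

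**Figure D1:**
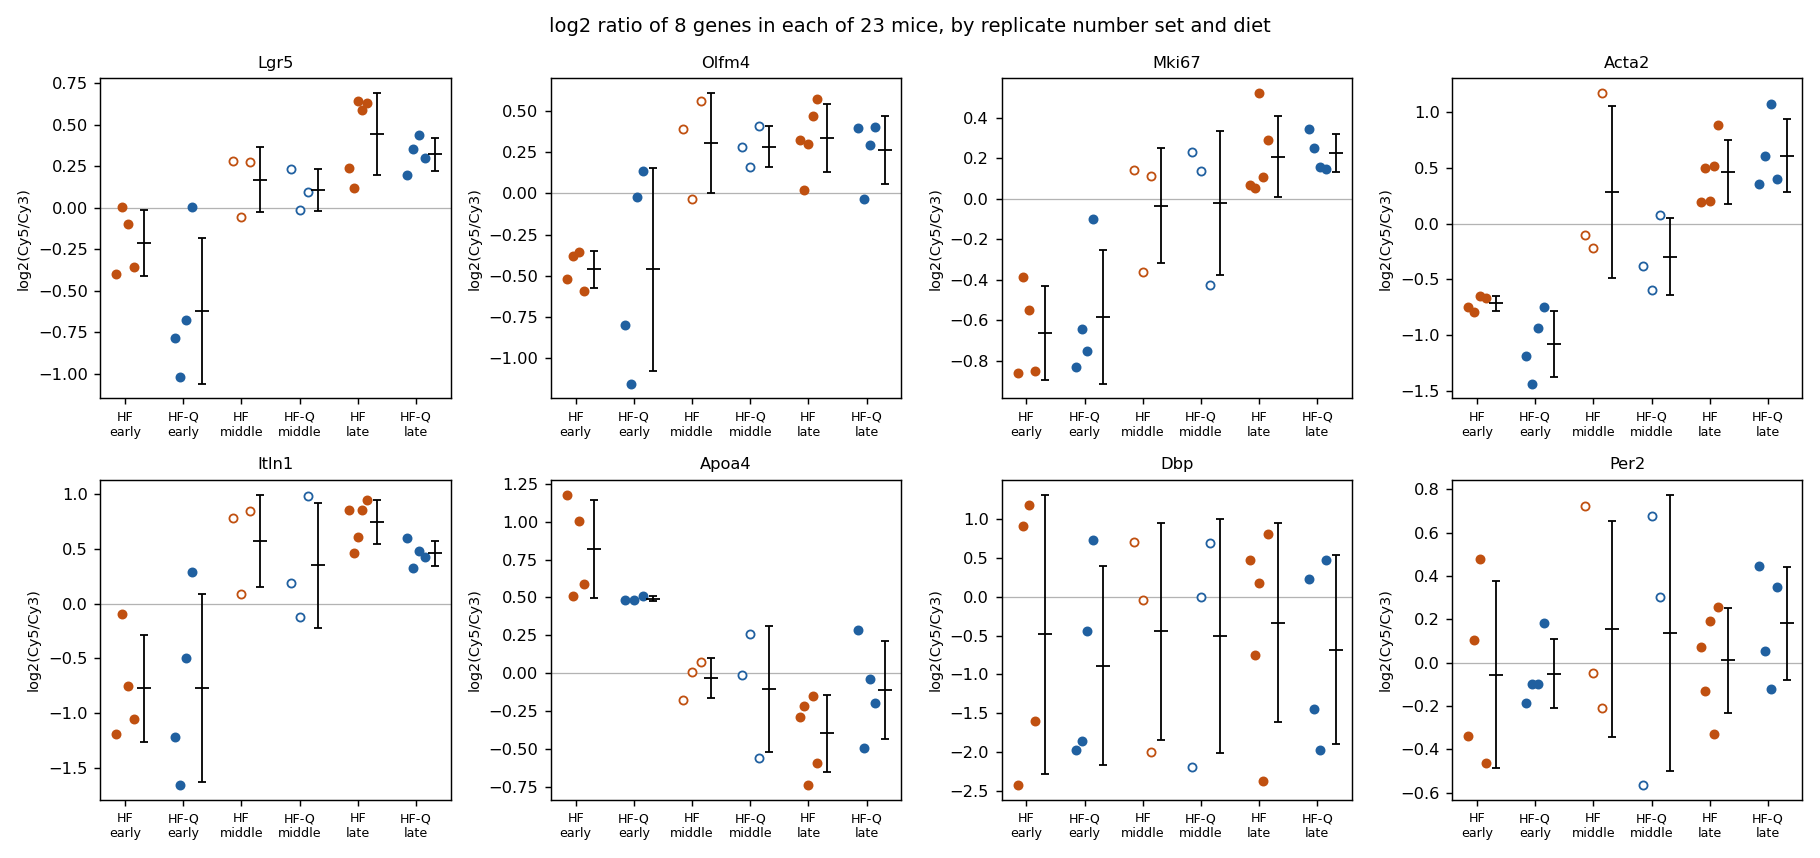
Log2 ratio over the pool (vertical axis) of 8 genes in each of the 23 mice, by diet and number set; filled points are early and late mice, open points middle mice, and bars give the group mean ± SD. Lgr5, Olfm4, Mki67, Acta2 and Itln1 were higher and Apoa4 lower in late mice, whereas Dbp and Per2 did not pass the threshold. Early and late mice overlapped in Olfm4, Dbp and Per2.

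Smooth muscle genes separated the sets. Where members of a list are counted, rose and fell mean past the threshold. Of all genes, 15.9% rose and 10.8% fell. Of 9 markers, 8 rose in late mice, each with every late mouse above every early mouse (2.46% of all genes). The list's median difference was 0.97, against -0.013 over all genes. Cnn1, the actin-binding protein calponin (probe chr9:21913058-21913117), stood at -1.21, -0.97, -0.91 and -1.13 in early HF and -1.69, -2.34, -1.25 and -0.92 in early HF-Q mice. It reached 0.22, 0.47, 0.34, 0.71 and 0.90 in late HF and 0.63, 0.80, 1.28 and 0.47 in late HF-Q mice, so the sets lay 1.89 ± 0.19 apart (3.71-fold). Actg2, the enteric smooth muscle actin, differed by 1.83 ± 0.19, and Acta2, the alpha smooth muscle actin, by 1.37 ± 0.12. Myh11, the smooth muscle myosin heavy chain, differed by 0.97 ± 0.12, Des, the filament protein desmin, by 0.85 ± 0.12, Tagln (transgelin) by 0.75 ± 0.10 and Smtn (smoothelin) by 0.40 ± 0.065. Synpo2, an actin-bundling protein of muscle, gave the smallest p of the named genes with 1.33 ± 0.10, but only 1 of its 2 kept probes lay on that side. Mylk, the kinase of the myosin light chain, was the exception at -0.24 ± 0.087 (adjusted p = 0.057 in limma). Outside the list, the light chain Myl9 (1.86 ± 0.18), tropomyosin Tpm2 (1.01 ± 0.098) and the PDZ-LIM protein Pdlim3 (1.30 ± 0.13) were among the 12 higher genes with the smallest p. In these bulk scrapings, more cells of a type and more RNA per cell cannot be told apart.

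The mean log2 ratio of the 9 smooth muscle markers in a mouse, its smooth muscle score, was -0.65, -0.57, -0.51 and -0.64 in early HF and -0.93, -1.24, -0.76 and -0.57 in early HF-Q mice. Late HF mice had scores of 0.047, 0.36, 0.086, 0.31 and 0.51, and late HF-Q mice 0.28, 0.39, 0.76 and 0.18. The scores of the 2 sets did not overlap, so the score and the number set could not be told apart in these mice. When the smooth muscle and pancreatic acinar scores were both put in the fit as covariates, 0 genes passed in limma (729 at an unadjusted p under 0.05). With the acinar score alone, 5565 passed. The late minus early difference in the score was 1.08, 0.99 and 0.99 within slides 1, 2 and 3, as plain means that do not account for diet. On slide 2, early HF mouse 1 and early HF-Q mouse 1 stood against late HF mice 10 and 11. Within HF it was 0.80 in row 1 and 0.90 in row 2.

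Other genes of the stroma followed. Of 9 fibroblast markers, 7 rose and 1, the matrix protein Fbln1 (-0.25 ± 0.067), fell. Collagen Col3a1 stood at -0.27, -0.41, -0.072 and -0.16 in early HF, -0.59, -1.12, -1.28 and -0.31 in early HF-Q, 0.33, 0.52, 0.31, 0.52 and 0.51 in late HF and 0.32, 0.49, 0.48 and 0.29 in late HF-Q mice. Every late mouse was above every early mouse, by 0.94 ± 0.13, and early HF-Q mice 2 and 3 lay lowest. Dcn, the proteoglycan decorin, differed by 0.85 ± 0.11, Col1a1 by 0.73 ± 0.15 and the growth factor receptor Pdgfra by 0.70 ± 0.12. Of 8 endothelial markers 5 rose, led by Plvap (0.95 ± 0.17), the diaphragm protein of fenestrated vessels, the junction cadherin Cdh5 (0.61 ± 0.090) and Vwf (0.76 ± 0.15), a clotting factor. Kdr (-0.19 ± 0.10), Pecam1 (0.064 ± 0.062) and Lyve1 (-0.025 ± 0.054) did not pass, and with the slide row in the fit 3 of the 8 rose.

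**Figure D2:**
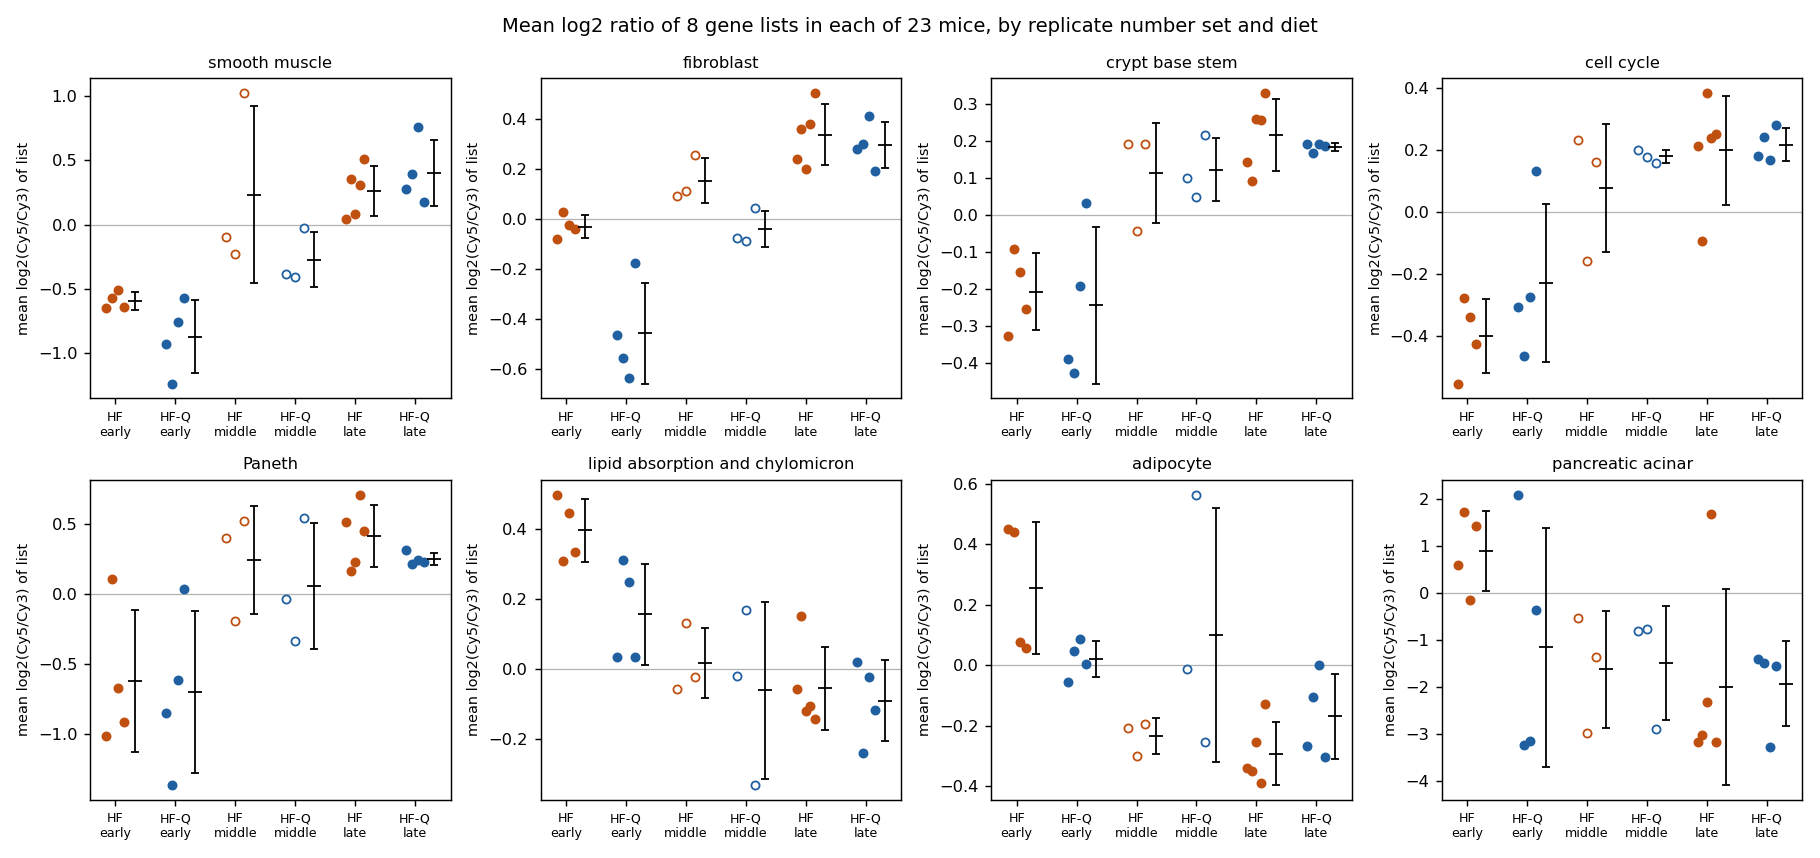
Mean log2 ratio over the pool (vertical axis) of the members of 8 gene lists in each of the 23 mice, by diet and number set; open points are middle mice and bars the group mean ± SD. Smooth muscle and fibroblast scores were higher in all late than in all early mice, and acinar scores spread over several log2 units within groups.

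Crypt base stem cell genes were higher in late mice. Of 20 listed genes 14 rose, against 15.9% of all genes. The RNA-binding protein Msi1 (-0.19 ± 0.047) was the only 1 that fell, against 10.8% of all genes. The list's median difference was 0.54, and 6 of its genes had no overlap between the sets, against 2.98% of all genes. Smoc2, a matrix protein, gave 0.96 ± 0.14 with overlap, and Slc12a2, the sodium-potassium-chloride cotransporter of crypt cells, 0.96 ± 0.15 without. Ascl2, the transcription factor that maintains stem cell fate, stood at -0.69, -0.11, -0.44 and -0.68 in early HF, -0.99, -0.97, -0.21 and -0.072 in early HF-Q, 0.20, -0.044, 0.22, 0.63 and 0.75 in late HF and 0.32, 0.36, 0.40 and 0.40 in late HF-Q mice. Every late value was above every early one, with a difference of 0.86 ± 0.15. Sox9 (0.63 ± 0.098), a crypt transcription factor, Tnfrsf19 (0.56 ± 0.074), a receptor induced by Wnt, and Nkd1 (0.62 ± 0.12), a Wnt feedback inhibitor, were also without overlap. Cdca7 (0.63 ± 0.10), Prom1 (0.53 ± 0.11), Lrig1 (0.55 ± 0.11), Rgmb (0.38 ± 0.053), Axin2 (0.34 ± 0.087) and Mex3a (0.24 ± 0.073) rose with overlap; the 2 probes of Axin2 lay on opposite sides. The Wnt-related ligases Rnf43 (-0.0046 ± 0.073) and Znrf3 (0.035 ± 0.077), the Wnt inhibitor Notum (-0.11 ± 0.11) and the receptors Ephb2 (-0.14 ± 0.054) and Ephb3 (0.041 ± 0.10) did not pass.

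The crypt base score ran from -0.43 to 0.033 in early mice (median -0.22) and from 0.092 to 0.33 in late mice (median 0.19), without overlap. The smooth muscle score differed in the same direction in the same mice, and its part in the crypt result was not tested apart from the set. With both tissue scores as covariates the median of the 20 genes was 0.096 and Lgr5 had a difference of -0.054. With the slide row in the fit the median was 0.53, and 12 of the genes rose.

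Cell cycle genes rose together: 32 of 36 measured genes passed, all of them higher, against 15.9% of all genes. All 36 differences were positive, and the median was 0.55. Among replication genes the helicase subunits Mcm7 (0.64 ± 0.077), Mcm4 (0.69 ± 0.080), Mcm3 (0.70 ± 0.098) and Mcm5 (0.56 ± 0.085) rose, as did the ribonucleotide reductase subunits Rrm1 (0.66 ± 0.11) and Rrm2 (0.75 ± 0.13). Among mitosis genes, Bub1b, of the spindle checkpoint, gave 0.69 ± 0.088, the kinase Plk1 0.66 ± 0.094, the anaphase activator Cdc20 0.67 ± 0.10 and Ube2c, the ubiquitin-conjugating enzyme of the same complex, 0.67 ± 0.099. Of the regulators, cyclin D1 (Ccnd1) differed by 0.96 ± 0.12, cyclin A2 (Ccna2) by 0.77 ± 0.11 and the transcription factor Myc by 0.82 ± 0.12. Pcna (0.097 ± 0.063), Cdt1 (0.11 ± 0.078), Tyms (0.065 ± 0.060) and Mcm2 (0.26 ± 0.11) did not pass. Among the 36, only Mki67 and Mcm7 separated the sets completely, as did 2.98% of all genes. Early HF-Q mouse 4 was the highest early mouse in 33 of the 36 genes, and late HF mouse 9 the lowest late mouse in 32. The score was -0.55, -0.28, -0.34 and -0.42 in early HF, -0.31, -0.46, -0.27 and 0.13 in early HF-Q, 0.21, -0.092, 0.38, 0.24 and 0.25 in late HF and 0.18, 0.24, 0.17 and 0.28 in late HF-Q mice.

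Promoters of the mitotic genes are shown because these genes moved together. The 250 bases before the start site, from RefSeq (GRCm38.p6), are printed for Mki67, Ube2c and Cdc20, the 3 genes of the list with the smallest p whose window held both CCAAT and TTTGAA. Capitals mark CCAAT, the box bound by NF-Y, and TTTGAA, the cell cycle homology region, on either strand; overlapping matches run together. The windows are chr7:135716380-135716629 on the minus strand, chr2:164769679-164769928 on the plus strand and chr4:118437344-118437593 on the minus strand.
Mki67: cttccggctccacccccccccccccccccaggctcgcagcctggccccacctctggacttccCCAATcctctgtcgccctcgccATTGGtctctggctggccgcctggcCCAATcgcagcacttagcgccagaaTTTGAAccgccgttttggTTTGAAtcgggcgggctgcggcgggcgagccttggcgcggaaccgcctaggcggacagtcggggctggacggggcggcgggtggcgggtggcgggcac
Ube2c: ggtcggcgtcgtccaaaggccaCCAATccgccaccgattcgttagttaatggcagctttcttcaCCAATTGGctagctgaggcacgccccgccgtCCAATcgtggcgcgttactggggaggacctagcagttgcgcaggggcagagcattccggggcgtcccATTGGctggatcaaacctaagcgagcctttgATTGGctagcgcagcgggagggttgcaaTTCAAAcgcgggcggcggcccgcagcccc
Cdc20: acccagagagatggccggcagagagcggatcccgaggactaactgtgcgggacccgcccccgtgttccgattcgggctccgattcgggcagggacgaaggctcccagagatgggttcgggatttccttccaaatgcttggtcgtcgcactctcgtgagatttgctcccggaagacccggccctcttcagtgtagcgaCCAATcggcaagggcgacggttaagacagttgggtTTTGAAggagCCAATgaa
The windows held 5, 7 and 3 matches. CCAAT was found in 21 of the 29 cell cycle genes that had a window (72.4%) and in 34.5% of the first listed windows of 27025 genes. TTTGAA was found in 8 of the 29 (27.6%) and in 16.3% of all. In the smooth muscle genes that had a window, CCAAT was found in 4 of 6 (66.7%) and TTTGAA in 0. The strict CArG box, CCWWWWWWGG with W for A or T, was found in 0 of 6 and in 1.4% of all. CArG boxes that depart from this pattern or lie outside the 250 bases were not searched, so these genes may still have them. A match describes letters only and not binding.

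Paneth cell genes rose: all 5 measured markers passed, against 15.9% of all genes that rose, with a median of 1.09. The list held 9 markers, and its defensins were not among the 5 measured. Itln1, the lectin intelectin (probe chr1:173448282-173448341), stood at -1.19, -0.091, -0.76 and -1.06 in early HF and -1.22, -1.66, -0.49 and 0.29 in early HF-Q mice. Late HF mice had 0.86, 0.46, 0.61, 0.86 and 0.95 and late HF-Q mice 0.61, 0.33, 0.48 and 0.42. All late mice were above all early mice, by 1.39 ± 0.22 or 2.61-fold. Mmp7, the protease that activates defensins, differed by 1.21 ± 0.19, and Ang4, a microbicidal ribonuclease, by 1.09 ± 0.25. Early HF mouse 2 and early HF-Q mouse 4 had the highest Paneth scores of their groups, 0.10 and 0.033. Near-identical family members can share probe signal, which applies to Itln1 and to Ang4.

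Of 12 inducible antimicrobial genes 5 rose (Ang4, Nos2, Retnlb, Reg3g and Saa2) and 1, Lcn2 (-0.29 ± 0.091), fell. Saa2, an acute-phase apolipoprotein also made by epithelium, stood at -3.16, -0.58, -5.15 and -3.67 in early HF, 0.94, -0.63, -3.43 and 1.45 in early HF-Q, -0.28, -2.55, 1.02, 1.47 and -0.55 in late HF and -0.90, 0.83, 0.18 and -2.55 in late HF-Q mice. Its difference of 1.93 ± 0.66 came with overlap between the sets, and early HF mice 1, 3 and 4 and early HF-Q mouse 3 lay lowest. Reg3g, a lectin against Gram-positive bacteria, gave 1.09 ± 0.37. With the slide row in the fit, 1 of the 12 rose, and with both tissue scores added the list's median turned from 0.68 to -0.10. Without the slide term 1 of the 12 rose over both diets. The list's median was 0.94 in HF and 0.33 in HF-Q, and -0.14 in HF-Q without the slide term.

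The other secretory lineages gave few calls. Of 8 goblet cell markers, Spink4 (0.55 ± 0.098), a protease inhibitor, and Agr2 (0.25 ± 0.063), a mucin-folding enzyme, rose, and Zg16 (-0.25 ± 0.085), a mucus lectin, fell. Of 12 enteroendocrine markers 4 fell and 0 rose: the hormones secretin (Sct, -0.39 ± 0.080), Gip (-0.38 ± 0.095) and somatostatin (Sst, -0.26 ± 0.078), and Tph1 (-0.26 ± 0.083), the enzyme of serotonin synthesis. Of 9 tuft cell markers Ptgs1 (0.41 ± 0.091) rose and Sh2d6 (-0.34 ± 0.11) fell. Clca3b, a chloride channel regulator, was the fourth of the higher genes by p with 1.22 ± 0.11.

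Genes of fat absorption were lower in late mice. Of 16 genes 13 fell (8 with median centring) and 0 rose, with a median of -0.36. Apoa4, an apolipoprotein of chylomicrons induced by fat (probe chr9:46049661-46050404), stood at 1.18, 0.51, 1.00 and 0.59 in early HF mice and at 0.48, 0.48 and 0.51 in the 3 early HF-Q mice with a usable spot. Late HF mice had -0.29, -0.21, -0.74, -0.15 and -0.59 and late HF-Q mice 0.28, -0.49, -0.038 and -0.19. Every late mouse lay below each of these 7 early mice, and Apoa4 fell by 0.96 ± 0.15 on the log2 scale, a level 1.94-fold lower. Mogat2, which rebuilds triglyceride from monoglyceride in the enterocyte, gave -0.37 ± 0.056, also without overlap. Mttp (-0.35 ± 0.075), which loads lipid onto apolipoprotein B, and Apob itself (-0.74 ± 0.22) fell, as did Dgat2 (-0.47 ± 0.11), which makes triglyceride, the sterol exporters Abcg5 (-0.29 ± 0.069) and Abcg8 (-0.40 ± 0.085), and the receptor Scarb1 (-0.55 ± 0.15). Fabp2 (-0.20 ± 0.097), Npc1l1 (-0.065 ± 0.11) and Abca1 (0.062 ± 0.14) did not pass. The list's score was 0.50, 0.31, 0.45 and 0.33 in early HF, 0.035, 0.31, 0.25 and 0.035 in early HF-Q, -0.057, 0.15, -0.12, -0.10 and -0.14 in late HF and 0.021, -0.24, -0.023 and -0.12 in late HF-Q mice, so late HF mouse 9 lay among the early mice. With both tissue scores in the fit the list's median was -0.34, and 0 of its genes passed. Of 8 markers of the proximal small intestine 0 passed, and their median was -0.50 in HF and 0.083 in HF-Q; their part in the fat absorption result was not tested. Of 10 distal markers Ggt1 (-0.25 ± 0.041), a transpeptidase, fell and 0 rose.

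Of 12 enterocyte markers 2 fell, against 10.8% of all genes, and the authors' log2 values gave 9. All 12 differences were negative (53.1% of all genes were), with a median of -0.21. Apoa4 and Krt20 (-0.24 ± 0.083), a keratin of villus cells, fell. Alpi (-0.28 ± 0.13), Vil1 (-0.21 ± 0.088) and Sis (-0.052 ± 0.14) were below 0 without passing. Of 14 genes for sugars and peptides all 14 were below 0 and 3 fell: Treh (-0.40 ± 0.11), Fbp1 (-0.51 ± 0.16) and Khk (-0.28 ± 0.095), of trehalose digestion, gluconeogenesis and fructose use. With median centring 0 of the 14 fell, with the slide row in the fit 1, and with the authors' log2 values 7. The sodium-glucose carrier Slc5a1 gave -0.017 ± 0.13. Of 23 genes of fasting and PPARA, the receptor that drives fatty acid oxidation, 22 were below 0 and 2 fell, a share below that of all genes: the transcription factor Creb3l3 (-0.38 ± 0.083) and the dehydrogenase Acadvl (-0.21 ± 0.062). That list's median was -0.43 in HF and -0.035 in HF-Q (0.040 without the slide term).

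Calls among adipocyte and immune cell markers varied from list to list. Of 6 adipocyte markers 4 fell: Cfd (adipsin, -1.15 ± 0.19), Adipoq (adiponectin, -0.60 ± 0.12, above background on 9 of 17 arrays), Retn (resistin, -0.42 ± 0.081) and Cidec (-0.33 ± 0.096), a lipid droplet protein. Car3, a carbonic anhydrase abundant in fat and muscle, had the largest difference of the 12 lower genes with the smallest p. It stood at 1.24, 1.09, 0.47 and 0.47 in early HF, 0.19, 0.15, 0.65 and 0.11 in early HF-Q, -0.40, -0.81, -0.57, -0.76 and -0.78 in late HF and -0.72, -0.47, -0.32 and -1.09 in late HF-Q mice, a difference of -1.20 ± 0.15 without overlap. Of 8 B and plasma cell markers 3 rose: Jchain (1.09 ± 0.16), which joins IgA, Mzb1 (0.72 ± 0.12) and Pou2af1 (0.54 ± 0.11). The B cell marker Ms4a1 (0.026 ± 0.20) did not pass. Of 9 macrophage and dendritic markers 6 rose, from Cd14 (0.20 ± 0.066) to Lyz2 (0.47 ± 0.14), but 1 rose with the slide row in the fit and 3 with median centring. Of 10 T cell markers only Cd4 (-0.26 ± 0.075) fell and 0 rose. Kit, on mast cells and on the pacemaker cells of the gut wall, rose by 0.54 ± 0.085, whereas the mast cell proteases Mcpt1 (-0.14 ± 0.25) and Mcpt2 (-0.11 ± 0.20) did not pass.

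Pancreatic acinar genes varied widely among mice of the same group. Their mean score was 0.59, 1.72, -0.16 and 1.42 in early HF mice, 2.09, -3.23, -3.13 and -0.35 in early HF-Q mice, -3.17, -3.02, -2.31, 1.69 and -3.15 in late HF mice and -1.41, -1.48, -3.28 and -1.55 in late HF-Q mice. In HF, 4 of 5 late mice were low and mouse 11 was high, while early HF-Q mice ran from -3.23 to 2.09. The median difference of the 12 genes was -1.78 over both diets, and 2 passed, Ctrl (-1.40 ± 0.48) and Cela2a (-1.88 ± 0.67). Within HF the median was -2.98. Within HF-Q it was 0.37 with the slide in the fit, where early mouse 1 (2.09) does not count because it is alone on its slide, and -0.97 without the slide term. With the acinar score in the fit, the crypt base median was 0.55 and the smooth muscle median 1.06.

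Circadian clock genes gave no call. Of 20 clock genes 0 passed in limma (3 at an unadjusted p under 0.05), the median difference was -0.030, and 9 were higher and 11 lower. Arntl, the activator BMAL1, stood at 0.90, -0.77, -0.88 and 0.56 in early HF, 0.77, 0.63, 0.16 and -0.70 in early HF-Q, -0.69, -0.069, -0.37, 0.69 and -1.10 in late HF and -0.14, 0.34, 0.74 and -0.53 in late HF-Q mice. Mice low in Dbp, such as HF 1, HF 4, HF 11, HF-Q 1 and HF-Q 2, were high in Arntl. Both sets held mice of either kind, and the errors of Dbp (0.083 ± 0.53), Tef (0.0083 ± 0.31), another output factor, and Arntl (-0.14 ± 0.27) were wide. Per1 (0.19 ± 0.21), Per3 (-0.019 ± 0.11), Cry1 (-0.058 ± 0.077), Cry2 (-0.095 ± 0.11), Nr1d1 (-0.21 ± 0.11), Nr1d2 (0.019 ± 0.21), Clock (0.043 ± 0.066), Npas2 (-0.30 ± 0.13), Rora (0.085 ± 0.062), Hlf (-0.19 ± 0.21), Nfil3 (-0.069 ± 0.18), Bhlhe40 (-0.13 ± 0.062), Usp2 (0.076 ± 0.18), Wee1 (0.25 ± 0.13) and Nampt (-0.042 ± 0.091) did not pass either. A p that misses the threshold does not show that the sets had the same clock phase.

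Of the 12 lower genes with the smallest p, Hdhd2, a phosphatase-like protein, led with 0.23, 0.18, 0.18 and 0.21 in early HF, 0.35, 0.28, 0.33 and 0.31 in early HF-Q, -0.12, -0.30, -0.30, -0.37 and -0.43 in late HF and -0.033, -0.47, -0.44 and -0.41 in late HF-Q mice, a difference of -0.56 ± 0.063 without overlap. Cox6a1, of cytochrome c oxidase, gave -0.39 ± 0.058, Ndufa1, of respiratory complex I, -0.35 ± 0.053, and Mcu, the mitochondrial calcium channel, -0.49 ± 0.070, each without overlap. Lpar1, a lysophosphatidic acid receptor, differed by -0.63 ± 0.088, the Golgi mannosidase Man1a by -0.52 ± 0.073 and Gchfr, which restrains tetrahydrobiopterin synthesis, by -0.43 ± 0.062. Kptn (-0.30 ± 0.045), Dnase1l1 (-0.33 ± 0.051) and the vesicle protein Sytl3 (-0.40 ± 0.054) complete these with Car3 and Mogat2. Among the higher ones were also the AMPA receptor partner Cnih2 (1.02 ± 0.082), the insulin-regulated glucose carrier Slc2a4 (0.84 ± 0.082), the exchange factor Psd (0.55 ± 0.056) and the cation exchanger Slc24a3 (0.93 ± 0.097).

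Stress and synthesis genes gave mixed results, to be read beside the 15.9% of all genes that rose and the 10.8% that fell. Of 11 heat and cold response genes 6 rose, among them the chaperones Hspd1 (0.41 ± 0.074) and Hspb1 (0.44 ± 0.085) and the cold-inducible Rbm3 (0.59 ± 0.14), and Dnajb1 (-0.14 ± 0.050) fell. Of 16 p53 targets 4 rose, Aen (0.58 ± 0.090), Trp53inp1 (0.55 ± 0.091), Phlda3 (0.46 ± 0.086) and Ccng1 (0.16 ± 0.048), and Tnfrsf10b (-0.23 ± 0.045) and Sesn2 (-0.29 ± 0.082) fell. Cdkn1a (-0.15 ± 0.098) and Mdm2 (0.061 ± 0.050), the classic targets, did not pass. In fatty acid synthesis the desaturase Fads1 (0.53 ± 0.10) and citrate lyase Acly (0.31 ± 0.068, 1 of 2 probes on that side) were among 5 of 14 that rose, and the regulator Srebf1 (-0.48 ± 0.13) fell. Of 22 genes of cholesterol synthesis 0 rose and 2 fell, near the share of all genes that fell. They were Insig1 (-0.50 ± 0.11), which holds back SREBP processing, and Sc5d (-0.21 ± 0.048). Of 17 ER stress genes 3 rose and 2 fell, near the shares of all genes. Hsp90b1 (0.35 ± 0.079) was among those that rose and Ddit3 (-0.42 ± 0.092), the factor CHOP, among those that fell. Lists for interferon, hypoxia, glucocorticoids, immediate early genes, insulin and FOXO targets and MHC class II had medians between -0.18 and 0.24. Of 7 hepatocyte and 4 erythroid markers 0 passed.

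**Figure D3:**
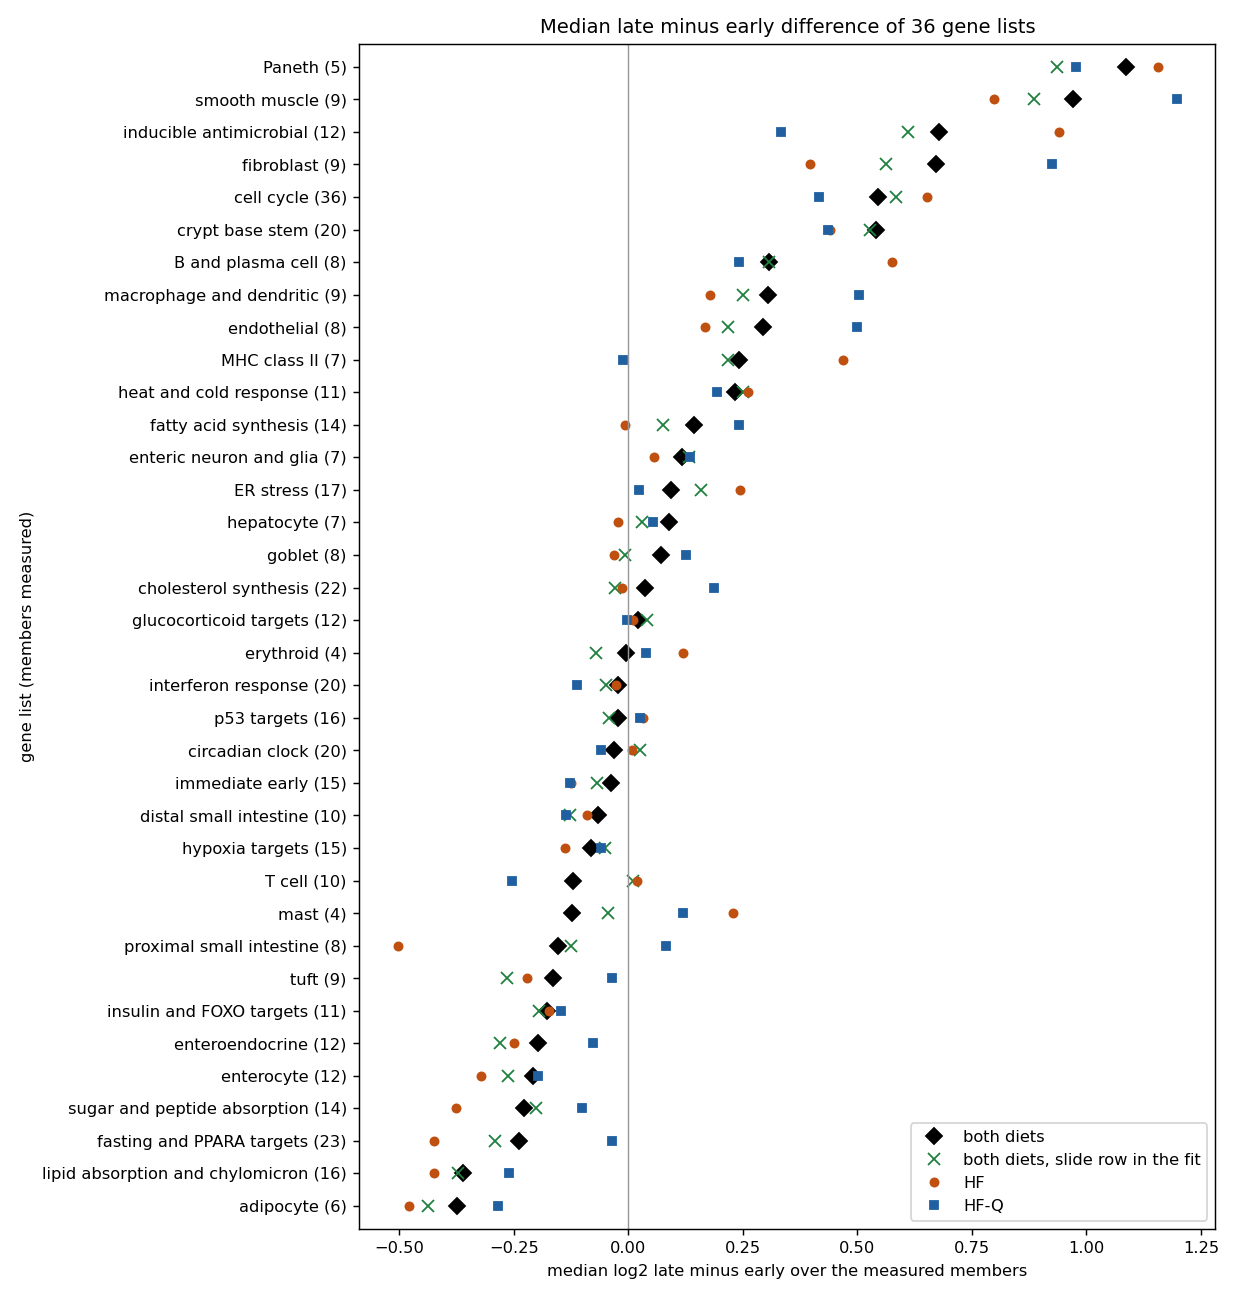
Median log2 late minus early difference (horizontal axis) of 36 gene lists, with the number of members measured in brackets, for both diets together, with the slide row in the fit, and for each diet apart. Paneth, smooth muscle, inducible antimicrobial, fibroblast, cell cycle and crypt base lists lay highest and adipocyte and lipid absorption lists lowest; the acinar list (median -1.78) is off this scale and left out.

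The difference was then taken in each diet apart, with no array shared apart from the common pool. In HF-Q, early mouse 1 is the only early or late array on its slide, so with the slide in the fit the difference rests on 3 early and 4 late mice, and for Apoa4 on 2 early mice. In HF, 2299 genes (10.7%) passed in limma, 1581 higher (7.37%) and 718 lower (3.35%). In HF-Q 0 passed (0%), while 5101 genes had an unadjusted p under 0.05 and the smallest adjusted p was 0.0569. Of the 2299 genes, 2097 had the same sign in HF-Q (91.2%), as had 68.6% of all genes. The number sets had been chosen after the ratios of both diets were seen. The shared sign therefore describes the difference and is no test of it. Across all genes the differences of the diets had a Pearson r of 0.383, as a description, since genes are not independent and the slides are shared. Calls in each diet depended on the settings and on single mice. Without early HF mouse 1 the HF count was 22, and without HF mice 3, 4, 8, 10, 11 or 12 it was 629, 926, 1513, 713, 1435 and 745. Without early HF-Q mouse 4 the HF-Q count was 3284. Median centring moved the median of all genes to -0.10 in HF and 0.11 in HF-Q and gave 3846 calls in HF, 21.9% of them higher against 68.8% with loess, and 2188 in HF-Q. Array weights gave 5357 and 7007.

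The leading genes had been chosen for the same sign in both diets, and their sizes are given side by side. Without the slide term, which brings early HF-Q mouse 1 in, the 24 genes and Lgr5, Olfm4 and Mki67 kept their sign in HF-Q, 27 of 27. The 24 had been chosen on these same HF-Q arrays, so their kept sign was largely set by the choice and is no test. Acta2 differed by 1.13 ± 0.12 in HF and 1.61 ± 0.21 in HF-Q, Cnih2 by 1.02 ± 0.096 and 1.04 ± 0.16, and Clca3b by 1.33 ± 0.13 and 1.15 ± 0.20. Lgr5 gave 0.63 ± 0.15 and 0.89 ± 0.22, Mki67 0.86 ± 0.15 and 0.77 ± 0.14, and Hdhd2 -0.48 ± 0.081 and -0.63 ± 0.12. Point values were larger in HF for Apoa4 (-1.29 ± 0.17 against -0.61 ± 0.21) and Jchain (1.48 ± 0.12 against 0.83 ± 0.22), and larger in HF-Q for Cnn1 (1.53 ± 0.13 against 2.26 ± 0.34) and Plvap (0.54 ± 0.097 against 1.47 ± 0.26). None of these 4 differences between diets passed the interaction term, with adjusted p in limma of 0.3, 0.25, 0.36 and 0.23.

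**Figure D4:**
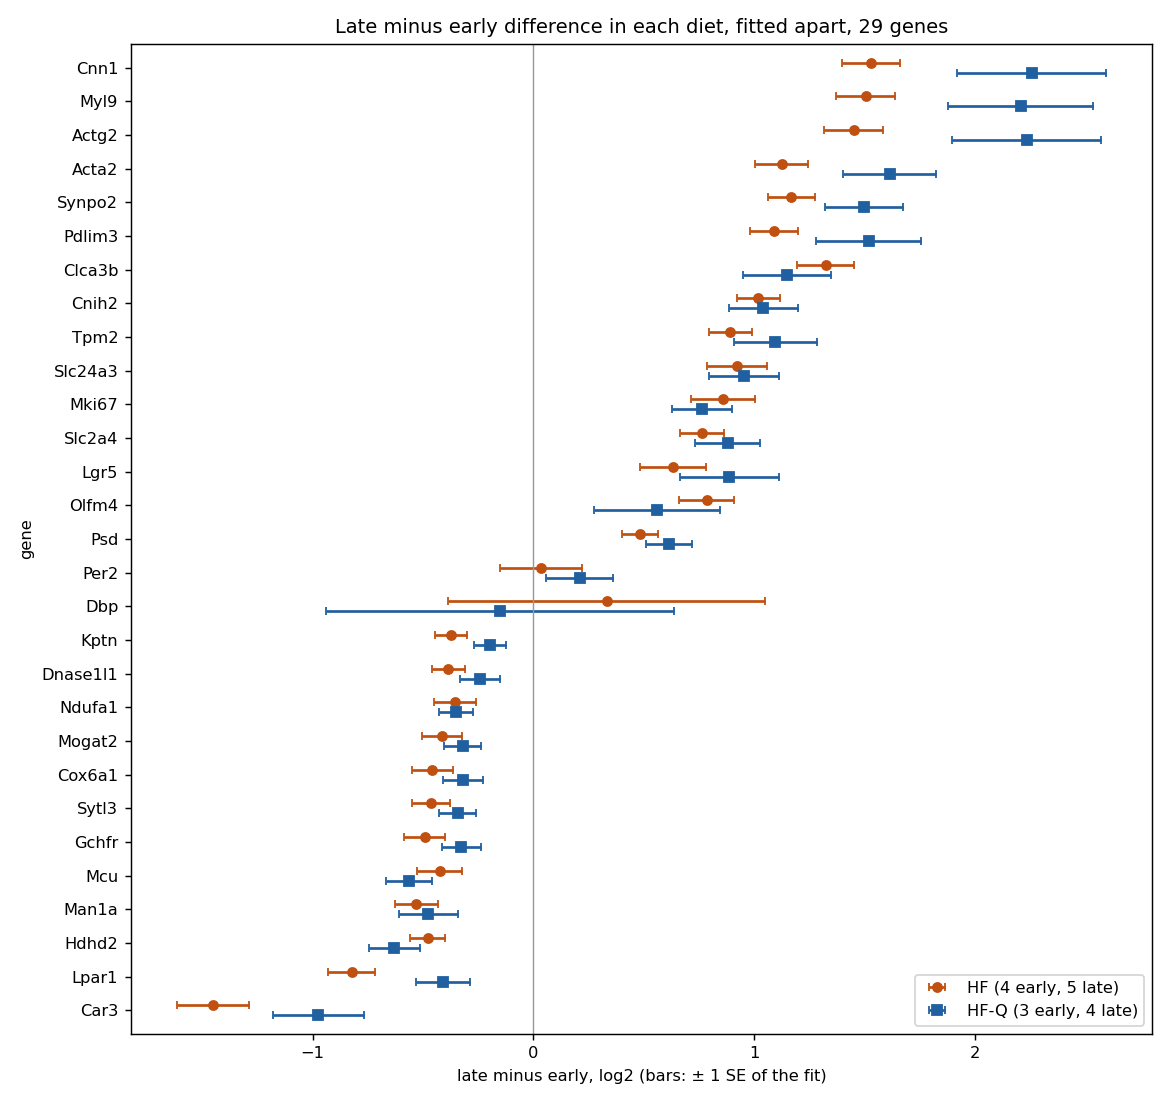
Late minus early log2 difference (horizontal axis, ± 1 SE of the fit) of 29 genes in HF (circles, 4 early and 5 late mice) and HF-Q (squares, 3 and 4, since early mouse 1 is alone on its slide), fitted apart. The 24 genes with the smallest p, chosen for the same sign in both diets, and Lgr5, Olfm4 and Mki67 lie on the same side of 0 in both, whereas Dbp has the widest errors.

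Whether the late minus early difference itself differed between diets was tested as an interaction term across all genes. It gave 0 genes in limma (2831, or 13.2%, at an unadjusted p under 0.05, smallest adjusted p 0.0674). The 3 genes with the smallest p were Lpl, Gm5215 and Zfp352. Lpl, lipoprotein lipase, was 0.51, 0.099, 0.27 and -0.060 in early and -0.42, 0.078, 0.088, -0.17 and 0.00017 in late HF mice, and -0.18, -0.38, -0.21 and -0.27 in early and -0.097, -0.0069, 0.11 and 0.20 in late HF-Q mice, that is -0.41 ± 0.095 against 0.31 ± 0.078. Early HF-Q mice lay below all late HF-Q mice, while in HF the sets overlapped. Zfp352 was 0.078 ± 0.098 in HF and -0.70 ± 0.081 in HF-Q, where its late mice had -0.55, -0.56, -0.61 and -0.55 against 0.17, 0.026, 0.13 and 0.23 in early mice. Gm5215, a predicted gene, gave 0.48 ± 0.088 and -0.22 ± 0.097. Insig1 fell in HF (-0.84 ± 0.080) and was -0.13 ± 0.13 in HF-Q, with an interaction p of 0.00017 before adjustment and 0.067 after it. Tpsb2, a mast cell tryptase, was -1.64, -1.59, -1.41 and 0.56 in early and 1.03, -1.39, -0.027, -1.10 and 0.33 in late HF mice, but -0.39, 0.74, 1.19 and -0.96 in early and -1.72, -1.90, -1.59 and -1.99 in late HF-Q mice. Its difference was 1.17 ± 0.49 in HF and -2.21 ± 0.42 in HF-Q (interaction adjusted p = 0.11). The count of interaction genes depended on the scaling and on single mice. It was 3422 with median centring, where the median difference of all genes itself was 0.27, 583 without early HF-Q mouse 4, 125 without early HF mouse 4 and 117 without late HF mouse 11.

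The comparison of the diets was refitted with the number set and slide as covariates over all 23 arrays. It gave 0 genes in limma, while 1586 (7.39%) had an unadjusted p under 0.05 and the smallest adjusted p was 0.271. With the slide alone 1117 genes (5.21%) were at that level, and with the diet alone 972 (4.53%), again with 0 past the adjusted threshold. The median absolute difference between diets was 0.051 in this fit of 23 arrays. Between late and early mice it was 0.124, in a fit of 17 arrays. These values are not like for like, since the array numbers differ and noise adds to both. The number sets had also been chosen after these ratios were seen to differ.

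The 6 middle mice are given as a description. At the borders of the sets, the smooth muscle score was -0.64 and -0.094 in HF mice 4 and 5 and 1.02 and 0.047 in HF mice 7 and 8. In HF-Q it was -0.57 and -0.38 in mice 4 and 5 and -0.027 and 0.28 in mice 7 and 8. Crypt base scores were 0.19, -0.043 and 0.19 in HF and 0.10, 0.050 and 0.22 in HF-Q, and cell cycle scores 0.23, -0.16 and 0.16 and 0.20, 0.18 and 0.16. Their smooth muscle scores were -0.094, -0.23 and 1.02 in HF and -0.38, -0.40 and -0.027 in HF-Q. HF mouse 7 had the highest smooth muscle score of all 23 mice, while its Lgr5 (0.28) and Mki67 (0.11) lay within the range of late HF mice. With all 23 arrays and 3 number sets in the fit, 6009 genes passed between late and early mice.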

How the data were processed

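RNA from small intestinal scrapings was measured on 2-colour Agilent arrays with no dye swap: Cy5 held a mouse and Cy3 an equimolar pool, per the labels. Per the file headers, Agilent Feature Extraction 10.7.3.1 gave linear intensity values per spot, log10 ratios and quality flags (scored 0 or 1), with probe positions on mm9. The authors' deposited table holds log2 ratios. Here Cy5 and Cy3 intensities were corrected with normexp (offset 50) and loess in limma 3.58.1 (R 4.3.3), flagged spots (260 to 355 an array) were dropped, and spots of a probe averaged. Kept were probes with Cy5 above background on 50% of the arrays of either diet and values on 20 of 23 arrays, 29249 of 55681 (52.5%), and the brightest probe of a gene. RefSeq (GRCm38.p6) named 15140 of 21456 genes.

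limma fits (lmFit, eBayes, two-sided, Benjamini-Hochberg over all genes, threshold 0.05) held number set, diet and slide. Each array held a different mouse, per the labels, so errors cover the spread between mice and arrays. Members, lists and tests were chosen with earlier results of these data known. Text genes were the 12 higher and 12 lower genes with the smallest p (RefSeq symbol, above background on all 17 arrays, same sign in both diets), the 5 markers, clock and crypt base lists, the 2 smallest p of every other list and the 3 of the interaction; other list members were named to complete a count or illustrate it, after their values were seen. Some list members are not reported here by name. Fits were checked on simulated data. Alternatives covered background, centring, the scanner's and authors' ratios, Cy5 alone, filters, probe choice, slide, row, tissue scores, array weights and leaving out each array.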

Additional observations from a re-analysis of the deposited data

Results flagged for a closer look

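Within the 4 groups of 4 or 5 mice, single animals stood apart from their group in 14 of 264 checks of list scores and leading genes, where chance gives about 13.2. Each value is given with that of the nearest mouse of its group. Among scores, late HF mouse 9 was high for lipid absorption at 0.15 (nearest -0.057) and for enterocyte genes at 0.17 (nearest 0.0067). Late HF mouse 11 was high for pancreatic acinar genes at 1.69 (nearest -2.31), and late HF-Q mouse 10 was low for them at -3.28 (nearest -1.55). Late HF-Q mouse 10 was also low for ER stress at -0.13 (nearest 0.00052), late HF mouse 10 low for hepatocyte genes at -0.14 (nearest 0.037), and early HF-Q mouse 4 low for mast cell genes at -0.43 (nearest -0.11).

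Among genes, late HF-Q mouse 10 was high for Pdlim3 at 0.82 (nearest 0.47) and for Psd at 0.57 (nearest 0.20), and early HF mouse 3 was high for Psd at -0.16 (nearest -0.28). Late HF-Q mouse 8 was high for Hdhd2 at -0.033 (nearest -0.41), and late HF mouse 12 was low for Cox6a1 at 0.40 (nearest 0.51). Early HF-Q mouse 3 was high for Car3 at 0.65 (nearest 0.19) and for Ndufa1 at 0.25 (nearest 0.095).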

How the results depend on the processing

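For both diets together, 5737 genes passed. Most settings kept the count within 1.5 times; median centring gave 3258, the slide row 3412, and the acinar and smooth muscle scores 0. Leaving out each mouse gave 4296 to 6149. In HF (2299 genes) median centring gave 3846, the scanner software's ratio 826, the slide row 1290, both scores 0 and array weights 5357, and leaving out a mouse gave 22 to 3229. In HF-Q (0 genes) median centring gave 2188, 1296 with the authors' log2 values, Cy5 alone 704, no filter 97, no slide term 1967, slide as a random block 1956, both scores 1 and array weights 7007, and leaving out a mouse 0 to 3284. The interaction (0 genes) gave 3422 with median centring, 3 with the scanner software's ratio, 191 with the authors' table, 32 with Cy5 alone, 140 with array weights and 0 to 583 leaving out a mouse. The causes were not tested, except that median centring moved the median interaction of all genes to 0.27. The diet term with the number set gave 0 genes in every setting run, leaving out each mouse included.

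Pairing of the diets by replicate number was looked at after the means of diet, number set and slide had been taken out. Of 11 same-numbered pairs 2 then correlated over 0.1, and 0 HF mice matched best with their own number. Any likeness shared by a whole number set was removed beforehand, and few matches would arise among unpaired mice. These values therefore do not settle whether the numbers pair the diets. With the number as a random replicate block (correlation -0.11) 6564 genes passed between the sets, and with it as a fixed replicate block 0 passed between diets. The 24 leading genes and Lgr5, Olfm4 and Mki67, 27 in all, passed in 32 of 33 settings, and not with both scores added. The 24 had been chosen for the smallest p in the main fit of these same arrays, which favours passing in its variants. Differences that had passed turned sign with both scores added for Lgr5 (-0.054), Axin2 (-0.035), Acly (-0.13), Junb (0.12), Hspb1 (-0.18), Irf7 (0.16) and Csf1r (-0.0052). The acinar score alone was added after seeing the data. Of 592 list medians under other settings, 45 moved by more than the spread between mice. The number of arrays, 4 or 5 a group, limits the precision of each value.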

Other observations

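A mouse outside the comparison stood apart in p53 target genes; it was picked after its values were seen. HF-Q mouse 7, of the middle set, had a mean p53 target score of 0.33, against -0.092 to 0.085 in the other 22 mice. Of 16 measured targets 5 were highest in this animal. Phlda3, an inhibitor of Akt, was at 1.65 (highest of the others 0.24), and Gdf15, a stress cytokine, at 1.03 (highest of the others 0.50). Aen, an apoptosis nuclease, was at 0.83 (highest of the others 0.52), Ccng1 at 0.69 (highest of the others 0.14) and the apoptosis factor Bax at 0.40 (highest of the others -0.16). Cdkn1a (-0.083) and Mdm2 (0.31) lay within the range of the other mice. A single animal has no replicate, and the value was not tested.

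The bile acid hormone Fgf15, made in the ileum, varied widely among mice: -0.10, 1.62, -0.26 and 1.94 in early HF, -1.77, -0.50, 1.19 and -1.29 in early HF-Q, -0.53, 0.18, -0.32, -0.66 and -0.26 in late HF and -0.72, -1.89, -0.97 and 0.27 in late HF-Q mice. Early HF mice 2 and 4 and early HF-Q mouse 3 lay highest. The sets overlapped, with a difference of -0.80 ± 0.39.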
